A study of Schmidtea mediterranea with 15 samples.

Results

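Among poly(A) RNA records of the sexual planarian flatworm Schmidtea mediterranea, 22 transcripts stood higher in trunk fragments after 3 days of regeneration than at day 0 and were lower again at day 7. They were chosen from 91522 records that carry identifiers of one transcriptome assembly, out of 92053 records in the count table. The rule used CPM, each count divided by the total of its library and multiplied by 1e+06: a mean at day 3 of at least 2 CPM and at least 1.8 times day 0, a mean at day 7 no higher than day 3 divided by 1.5, and a mean in juveniles above day 0 divided by 3. These group means chose the transcripts, so differences among day 0, day 3, day 7 and juveniles are given as a description, and edgeR counts among them only as values from which nothing is read. The day 5 libraries took no part in the choice.

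The study sampled 15 libraries in 5 groups of 3, all labelled as the sexual S2F2 biotype. The groups were trunk fragments at day 0, regenerating trunk fragments at days 3, 5 and 7, and whole juvenile animals, with no other treatment or genotype given. Whether replicates are separate animals or pools is unstated, so each p-value rests on a spread between samples that may be technical. Juveniles are whole animals at another stage, so body part and stage cannot be told apart in their comparisons. Total counts ran from 20338464 to 59034917 per library. Day 0 replicate 3, day 3 replicate 3 and day 7 replicate 3 stood apart upwards: 7.17%, 6.25% and 4.95% of the 46736 tested records were there at least 2 times as high as in both other replicates, while in day 7 replicate 2 2706 records were at no more than 1/2 of both others.

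Planarians rebuild missing body parts from neoblasts, dividing stem cells spread through the body that supply every differentiated cell type. After amputation a wound response is followed by proliferation, by the growth of an unpigmented blastema at the wound, and by remodelling of the old tissue; transcripts that are raised for part of this time and then decline are a known feature of planarian regeneration. Sexual animals are hermaphrodites whose reproductive organs are present in adults and undeveloped in juveniles. The identifiers come without gene names, so no role is given to any of these transcripts, and the tissue labels could not be checked against marker genes. In bulk RNA, fewer cells of a type and less RNA per cell cannot be told apart.

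The bounds were narrow. Of 17949 assembly records with at least 2 CPM at day 3, 220 were at least 1.8 times as high as at day 0, and 191 of these also met the bound on juveniles. Of those 191, 169 had not come down by the factor of 1.5 at day 7 and 22 had. The 169 had a median ratio of day 3 to day 0 of 1.99, against 3.32 in the 22. The bound that split them uses the same day 3 means, so a higher ratio in the 22 is favoured by the choice. The members just inside the bounds had a day 3 mean of 2.11 CPM, a ratio of day 3 to day 0 of 1.81, a ratio of day 3 to day 7 of 1.54 and a ratio of juveniles to day 0 of 0.348, each the lowest of its kind. The records just outside, meeting all other bounds, had 1.90 CPM, 1.77, 1.49 and 0.296 in the same order.

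The 22 transcripts are referred to by their rank in mean CPM at day 3, from rank 1 to rank 22. Their day 3 means ran from 2.11 to 121 CPM with a median of 9.01 CPM, and 10 of them were at 10 CPM or more. Each was backed by at least 268 counts over the 3 day 3 libraries and at least 68 over the 3 day 0 libraries. The median ratio of day 3 to day 0 was 3.32 (range 1.81 to 6.52), and 9 members were at 4 times day 0 or more. The median ratio of day 3 to day 7 was 1.82 (range 1.54 to 4.73). Their summed share of a library averaged 0.0164% ± 0.00138 in day 0 trunks and 0.0590% ± 0.00762 in day 3 trunks, then 0.0430% ± 0.00508 after 5 days and 0.0328% ± 0.00713 after 7 days, and 0.0188% ± 0.00268 in juveniles (SD, n = 3 each). The 2 most abundant members held 37.9% of this sum at day 3.

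**Figure D1:**
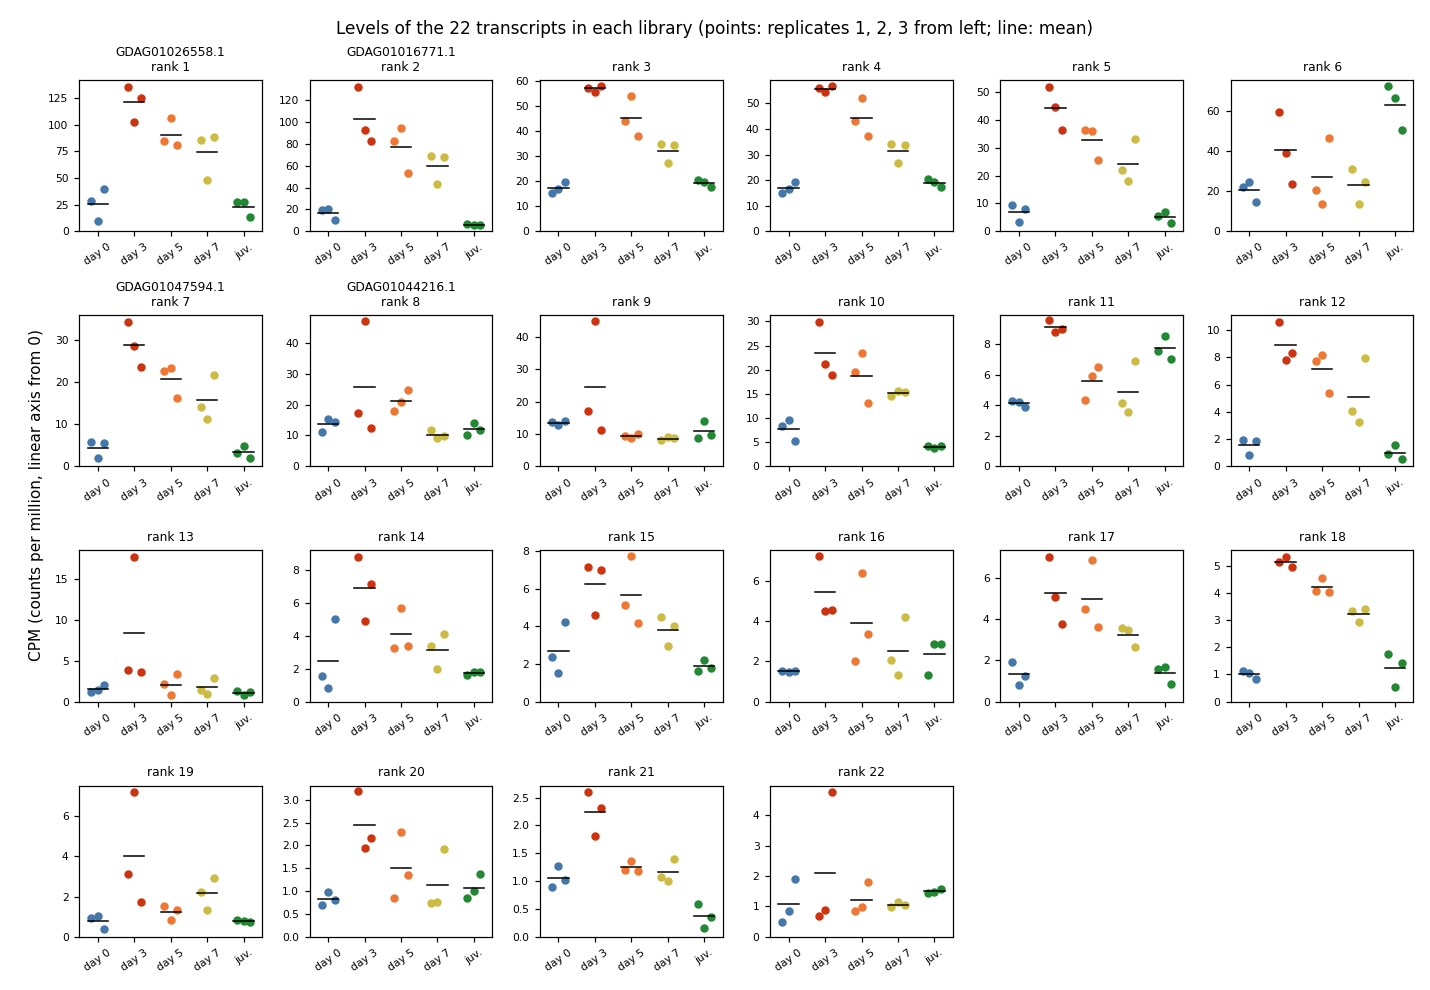
CPM of each of the 22 transcripts in the 15 libraries, 1 panel per transcript, with points for replicates 1 to 3 from left to right and a line at the group mean. Ranks 3, 4 and 18 had close replicates at day 3, while ranks 8, 9, 13, 19 and 22 had 1 day 3 library far above the others.

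Rank 1 was GDAG01026558.1, named because it was the most abundant at day 3. It stood at 28.3, 10.1 and 39.6 CPM in the 3 day 0 libraries, at 135, 103 and 125 CPM at day 3, at 84.3, 106 and 80.9 CPM at day 5, at 85.9, 48.4 and 88.4 CPM at day 7, and at 27.8, 27.0 and 13.3 CPM in juveniles. Every regenerating library lay above all day 0 and juvenile libraries, and the day 3 and day 5 ranges overlapped between 103 and 106 CPM. At day 5 it was 3.48 times its day 0 mean in plain CPM, and its day 7 mean was 2.86 times day 0. EdgeR adjusts library sizes for composition, so its estimates differ from ratios of plain CPM. Its day 5 log2 fold change over day 0 was 1.66 (SE 0.46), which just missed the threshold (edgeR quasi-likelihood test, adjusted p = 0.051). Without day 0 replicate 3 the day 5 log2 fold change was 2.14 (edgeR adjusted p = 0.029), and without day 0 replicate 2 it was 1.27 (edgeR adjusted p = 0.078). DESeq2 called it (adjusted p = 0.0028), and the edgeR fit of only the 2 groups did not (adjusted p = 0.20). Leaving out single libraries gave edgeR values from adjusted p = 0.029 to adjusted p = 0.14.

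GDAG01016771.1, rank 2 and the other of the 2 most abundant, had 19.5, 20.8 and 10.8 CPM at day 0 and 132, 93.3 and 82.4 CPM at day 3. It then had 83.2, 95.0 and 53.3 CPM at day 5, 68.6, 43.7 and 67.9 CPM at day 7, and only 6.84, 5.77 and 5.85 CPM in juveniles. The lowest regenerating library, at 43.7 CPM, lay above the highest day 0 library, at 20.8 CPM, and all juvenile libraries lay below all day 0 libraries. It was higher than day 0 at day 5 by a log2 difference of 2.05 (SE 0.31, edgeR adjusted p = 0.0027), which did not pass with only the 2 compared groups in the edgeR fit (adjusted p = 0.064). Its day 7 mean was 3.53 times day 0, and its day 3 mean was 16.7 times the juvenile mean, the widest such gap among the 22.

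GDAG01047594.1, rank 7, and GDAG01044216.1, rank 8, were named because their day 3 means exceeded the highest of their day 0, day 7 and juvenile means by the widest factors among members at 10 CPM or more, 1.83 and 1.88. GDAG01047594.1 had 5.70, 2.06 and 5.47 CPM at day 0, 34.2, 28.6 and 23.5 CPM at day 3, 22.7, 23.2 and 16.2 CPM at day 5, 14.1, 11.3 and 21.8 CPM at day 7, and 3.11, 4.82 and 2.06 CPM in juveniles. The day 3 libraries lay above all others, and the day 5 and day 7 libraries above all of day 0 and juveniles. Its log2 fold change over day 0 was 2.12 at day 5 (SE 0.43, edgeR adjusted p = 0.012), which did not pass with only the 2 compared groups in the edgeR fit (adjusted p = 0.083). Its day 7 mean was 3.57 times day 0.

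GDAG01044216.1 behaved differently within its groups. Its day 3 libraries had 17.1, 46.9 and 12.5 CPM, so that replicate 2 alone was 2.74 times the next, against 11.1, 15.4 and 14.3 CPM at day 0. At day 5 it had 18.1, 20.9 and 24.6 CPM, at day 7 11.7, 9.18 and 9.69 CPM, and in juveniles 10.1, 14.0 and 11.8 CPM. Day 3 replicate 3 lay within the day 0 range, whereas all 3 day 5 libraries lay above all day 0 and all day 7 libraries. The difference of day 5 from day 0 did not pass the test (log2 fold change 0.49, SE 0.40, edgeR adjusted p = 0.50), nor did that from day 7 (log2 fold change 1.04, SE 0.40, edgeR adjusted p = 0.30). Without day 3 replicate 2 the latter passed (log2 fold change 1.04, edgeR adjusted p = 0.019), and day 5 then stood above day 3 instead of below it, by 0.49 on the log2 scale (edgeR adjusted p = 0.97). Also without that library, day 5 was called higher than juveniles (log2 fold change 0.96, edgeR adjusted p = 0.0040), which it was not with it (edgeR adjusted p = 0.14).

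Day 5 is the group that the rule did not see. In 21 of 22 members the day 5 mean lay between those of day 7 and day 3, in all 22 it was below day 3, and in 21 it was above day 0 (20 after TMM scaling, which adjusts library sizes for composition). The exceptions were rank 19, where day 5 at 1.23 ± 0.351 CPM was below day 7 at 2.16 ± 0.818 CPM, and rank 9, where day 5 at 9.44 ± 0.631 CPM was below day 0 at 13.5 ± 0.641 CPM (SD, n = 3 each). On the log scale the median member had covered 53.8% of its fall from day 3 to day 7 by day 5. Because day 3 was chosen as high and day 7 as low in these same libraries, a mean between them is favoured by the choice.

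**Figure D2:**
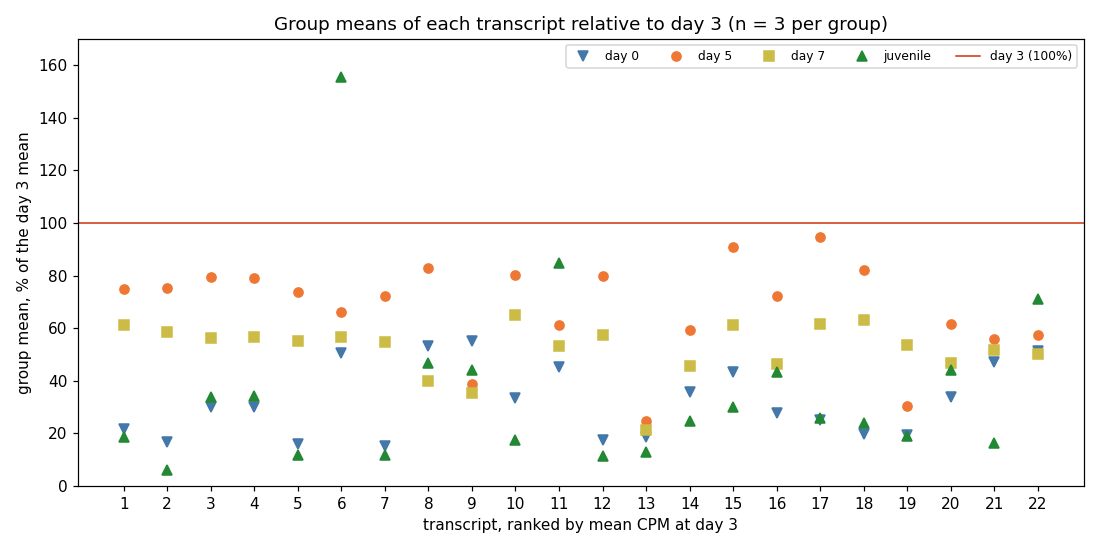
Group means at day 0, day 5, day 7 and in juveniles as a percentage of the day 3 mean, for each transcript by rank (n = 3 libraries per group). Day 5 lies between day 7 and day 3 in all but rank 19, and the juvenile mean lies above day 3 only in rank 6.

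Tested in 1 edgeR fit of all 46736 records that passed a low-count filter, which all 22 members passed, 9 members were higher at day 5 than at day 0 (adjusted p under 0.05) and 0 were lower (0 also at an unadjusted p under 0.05). Over all tested records, 3.23% were called higher and 5.64% lower in that comparison. The 9 are not 9 separate measurements, since ranks 3 and 4 among them kept a near-constant count ratio, as described below. With only the 2 groups fitted, edgeR called 5 members higher, beside 1.76% of all records, and with upper-quartile scaling 11, beside 8.74% (4085 higher and 872 lower). The median log2 fold change was 1.03 for the members and -0.02 for all records. The day 0 libraries had been chosen as low against day 3, which favours such calls. All 3 day 5 libraries lay above all 3 day 0 libraries in 13 members, a pattern that 21.8% of all tested records showed. The steps next to day 5 gave no call after adjustment over all records: edgeR called 0 of 22 lower at day 5 than at day 3. All 22 had the same sign, which the choice of day 3 as high favours. In 7 the unadjusted p was under 0.05, beside 3034 of the 46736 records in either direction. DESeq2 also called 0, beside 32 of the 46736 records lower and 29 higher. Over all records edgeR called 0.00214% lower and 0.0171% higher. All 3 day 3 libraries lay above all 3 day 5 libraries in 10 members (7.10% of all tested records did). From day 5 to day 7 edgeR called 0 members higher at day 5, beside 0.520% of all records called higher and 0.280% lower. In 3 members the unadjusted p was under 0.05, beside 6835 of the 46736 records in either direction. DESeq2 called 0 members there, beside 487 records higher and 270 lower. All 3 day 5 libraries lay above all 3 day 7 libraries in 5 members (14.3% of all tested records did). EdgeR called 1 member higher at day 5 without day 3 replicate 2, beside 256 of the 46736 records. It called 2 without day 5 replicate 3, beside 142.

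In the contrasts that the rule itself used, edgeR called 13 of 22 members higher at day 3 than at day 0, beside 3.02% of all records (5.48% were lower), and 3 of 22 higher at day 3 than at day 7, beside 0.787% of all records (0.424% were lower). Nothing is read from these counts. The 3 were ranks 3, 4 and 11, whose day 3 libraries differed least in proportion to their mean along with rank 18: the coefficient of variation was 2.09%, 2.13%, 4.56% and 3.70%. The count for day 3 against day 0 was 7 when only those 2 groups were fitted, beside 0.573% of all records, and 18 with upper-quartile scaling, beside 13.7% (6416 higher and 872 lower). The count for day 3 against day 7 was 5 without juvenile replicate 2, beside 358 of the 46736 tested records. With DESeq2 it was 7, beside 756 of them. All 3 day 3 libraries lay above all 3 day 0 libraries in 17 members (21.9% of all tested records did) and above all 3 day 7 libraries in 18 members (8.58% of all tested records did).

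At day 7 most members stood between day 0 and day 3. The day 7 mean was above the day 0 mean in 19 of 22 (18 after TMM scaling and 20 after upper-quartile scaling), with a median ratio of 1.77 (range 0.638 to 3.57), and at 2 times day 0 or more in 8. Both groups were used by the rule, so the edgeR counts between them are a description and nothing is read from them. EdgeR called 9 members higher at day 7 than at day 0 and 0 lower (0 also at an unadjusted p under 0.05, and 0 with DESeq2), against 7.87% and 16.0% of all records called higher and lower. All 3 day 7 libraries lay above all 3 day 0 libraries in 11 members (27.8% of all tested records did). The 0 became 2 without day 3 replicate 2, beside 7311 of the 46736 records called lower. The 9 became 5 when only the 2 groups were fitted, beside 4.20% of all records. With upper-quartile scaling it was 12, beside 35.8% of all records (16751 higher and 4331 lower). The 9 called at day 7 were the same 9 called at day 5, and all were called at day 3 too: ranks 2, 3, 4, 5, 7, 10, 12, 17 and 18. Of all tested records, 1.48% were called higher than day 0 at all 3 days.

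These 9 are all the members with an edgeR call over day 0 at day 5, and the grouping was made after their values were seen. It follows the test threshold and not the level: rank 1, at 2.86 times day 0 on day 7, is not among them. The day 3 means of the 9 were 3.00 to 6.52 times day 0, their day 5 means 2.40 to 4.70 times and their day 7 means 1.87 to 3.57 times. Rank 18 was the tightest of the less abundant ones: 1.13, 1.04 and 0.839 CPM at day 0, 5.15, 5.32 and 4.94 CPM at day 3, 4.05, 4.55 and 4.04 CPM at day 5, 3.34, 2.94 and 3.41 CPM at day 7, and 1.75, 0.529 and 1.41 CPM in juveniles. Its 4 trunk groups did not overlap and descended from day 3 to day 7. It was higher than day 0 at day 5 by a log2 difference of 1.94 (SE 0.27, edgeR adjusted p = 0.00037). Rank 3 had 15.2, 16.7 and 19.5 CPM at day 0, 57.1, 55.7 and 58.1 CPM at day 3, 43.9, 53.8 and 38.0 CPM at day 5, 34.8, 27.2 and 34.2 CPM at day 7, and 20.5, 19.7 and 17.6 CPM in juveniles. Its day 3, day 5 and day 7 ranges were also separate, and it was above day 0 by a log2 difference of 1.26 at day 5 (SE 0.13, edgeR adjusted p = 0.00011). Rank 10 went from 7.79 ± 2.18 CPM at day 0 to 23.4 ± 5.79, 18.7 ± 5.22 and 15.2 ± 0.486 CPM at days 3, 5 and 7, and rank 17 from 1.31 ± 0.571 CPM to 5.28 ± 1.65, 5.00 ± 1.68 and 3.24 ± 0.506 CPM (SD, n = 3 each).

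**Figure D3:**
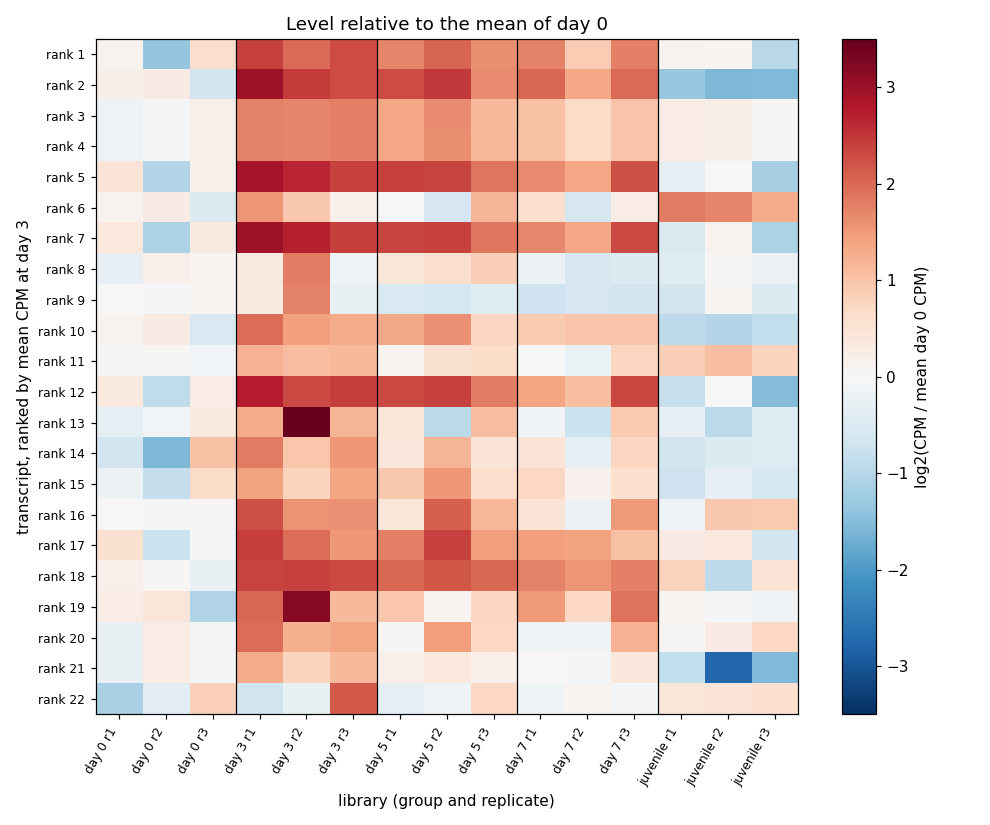
log2 ratio of the CPM in each library to the day 0 mean of the same transcript, with transcripts by rank and libraries by group and replicate (red above, blue below day 0). Ranks 1, 2, 3, 4, 5, 7, 10, 12, 17 and 18 are red through days 3, 5 and 7. So are ranks 15 and 19, faintly in some libraries. Ranks 8, 9, 13 and 19 stand out in day 3 replicate 2, and rank 22 in day 3 replicate 3.

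In 5 members the day 3 mean rested on 1 library that was at least 2 times the next. Besides GDAG01044216.1 (rank 8), rank 9 had 17.2, 44.8 and 11.3 CPM at day 3 against 13.6, 12.8 and 14.0 CPM at day 0. Rank 13 had 3.89, 17.7 and 3.60 CPM against a day 0 mean of 1.57 ± 0.391 CPM (SD, n = 3), and rank 19 had 3.15, 7.19 and 1.72 CPM against 0.934, 1.04 and 0.376 CPM. All 4 were highest in day 3 replicate 2, in which 0.854% of all tested records were at least 2 times as high as in both other day 3 libraries. In ranks 13 and 19 the other 2 day 3 libraries also lay above all day 0 libraries, whereas in ranks 8 and 9 1 of them did not. Rank 22 had 0.668, 0.895 and 4.77 CPM at day 3 and 0.492, 0.840 and 1.91 CPM at day 0, so that its day 3 mean came from replicate 3, a library that stood apart in many records. EdgeR called 1 of these 5, rank 19, higher at day 3 than at day 0, and none of them higher at day 5 or at day 7. What set single libraries apart was not tested.

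The 8 other members comprised rank 1, ranks 6 and 11, and 5 scarcer ones. Ranks 14, 15, 16, 20 and 21 had day 3 means of 6.95 ± 1.97, 6.25 ± 1.44, 5.44 ± 1.55, 2.44 ± 0.658 and 2.24 ± 0.393 CPM (SD, n = 3 each), which were 2.80, 2.32, 3.62, 2.94 and 2.12 times their day 0 means. Their day 5 means were 1.66, 2.11, 2.62, 1.82 and 1.18 times day 0, and none passed the edgeR test against day 0 there. Rank 21 was back near day 0 by day 5, with 1.20, 1.35 and 1.19 CPM against 0.885, 1.27 and 1.01 CPM, and its day 3 libraries at 2.59, 1.82 and 2.31 CPM lay above all of these.

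Set against intact juveniles, the day 3 mean was above the juvenile mean in 21 of 22 members, with a median ratio of 3.94 over the 22. The rule used both groups, choosing day 3 as high, so the counts between them are a description and nothing is read from them. EdgeR called 16 members higher at day 3 than in juveniles and 0 lower (0 also at an unadjusted p under 0.05), beside 11.1% and 7.62% of all records. DESeq2 called 19 higher, beside 6066 of the 46736 records. All 3 day 3 libraries lay above all 3 juvenile libraries in 18 members (12.7% of all tested records did). The median log2 difference was 2.12 for members and -0.02 for all records. At day 5, 12 members were called higher than in juveniles and 0 lower (0 at an unadjusted p under 0.05), beside 11.9% and 7.52% of all records. DESeq2 called 13 higher there, beside 6349 of the 46736 records. The 12 called by edgeR were the 9 called over day 0 at day 5 and ranks 1, 15 and 21. The day 5 libraries were not used by the rule, and juveniles were bounded by it only from below, through day 0.

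Juvenile means were within a factor of 2 of day 0 in 19 of 22 members, near the share of all tested records, which was 80.0%. The rule bounds this ratio from below. The ratio of juveniles to day 0 had a median of 0.877 and ran from 0.348 to 3.08. It was below 1 in 13 members and above 1 in 9. These ratios use plain CPM. The TMM factors were 0.893 to 0.933 in day 0 libraries and 1.07 to 1.125 in juveniles. TMM scaling therefore lowers each ratio, and the split at 1 depends on the scaling. Of the 3 outside that factor, rank 2 and rank 21 were lower in juveniles, with 6.15 ± 0.595 against 17.0 ± 5.43 CPM and 0.368 ± 0.212 against 1.06 ± 0.199 CPM, and rank 6 was higher. Rank 6 stood at 72.2, 66.4 and 50.5 CPM in juveniles, above all but 1 of the trunk libraries. Its trunk values were widely spread, with 22.2, 24.8 and 14.4 CPM at day 0, 59.4, 39.0 and 23.3 CPM at day 3, 20.4, 13.7 and 46.5 CPM at day 5 and 31.0, 13.5 and 24.5 CPM at day 7. The day 3 and day 0 ranges of rank 6 overlapped, and it passed none of the 8 edgeR tests. Rank 11 was the other member with high juvenile values: it went from 4.28, 4.23 and 3.91 CPM at day 0 to 9.58, 8.76 and 9.02 CPM at day 3, had 4.34, 5.93 and 6.48 CPM at day 5 and 4.12, 3.53 and 6.91 CPM at day 7, and stood at 7.58, 8.52 and 7.04 CPM in juveniles. All its day 3 libraries were above its juvenile libraries, at 1.18 times the juvenile mean on average.

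Members were not all separate measurements. Ranks 3 and 4 kept a count ratio of 0.982 in all 15 libraries, with an SD of 0.00767 on the log2 scale where independent counting would give 0.0677, so their counts differed by less than independent reads allow. GDAG01026558.1 and GDAG01016771.1 each had a record with an identifier of another format in the same relation, at 2.20 and 0.991 times their counts (SD 0.0125 and 0.0131, against 0.0505 and 0.0848 from independent counting). Rank 5 and GDAG01047594.1 (rank 7) held a ratio of 0.636 with an SD of 0.0781 against 0.128, and rank 12 followed GDAG01047594.1 at a ratio of 0.325 with an SD of 0.173 against 0.205. Ranks 5, 7 and 12, with rank 2, had the 4 highest ratios of day 3 to day 0, from 5.70 to 6.52. Of the 531 records with other identifiers, 4 met the same bounds, and in each the nearest member by constancy of the ratio was rank 1, 2, 3 or 14. The sources used here do not say how reads shared by similar records were assigned, so counts over the 22 are not counts of genes.

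Within groups, certain libraries were the lowest or the highest in many members. Day 7 replicate 2 was the lowest of its group in 17 of 22 members, against 36.9% of all tested records. Day 5 replicate 2 was the highest of its group in 14 (38.3% of all tested records), and day 3 replicate 1 in 14 (25.4%). The summed level of the 22 followed: 357, 247 and 381 CPM at day 7, 419, 485 and 385 CPM at day 5, and 659, 602 and 508 CPM at day 3, with 168, 148 and 175 CPM at day 0 and 201, 206 and 157 CPM in juveniles. The day 3 sums lay above all others, which the choice of members favours, and those of days 5 and 7 above day 0 and juveniles. The rule chose low day 7 means and high day 3 means, so it favours members with a low day 7 or a high day 3 library. Ranks 1, 6, 12 and 15 were not chosen without day 7 replicate 2. Linked records, such as ranks 3 and 4, count here as separate members.

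Membership itself depended on single libraries. Leaving out each of the 12 libraries used by the rule in turn, 10 of 22 members met the bounds every time: ranks 3, 4, 5, 7, 11, 13, 14, 16, 18 and 20. GDAG01026558.1 was not chosen without day 7 replicate 2, GDAG01016771.1 without day 0 replicate 3 or day 3 replicate 1, and GDAG01044216.1 without day 0 replicate 1 or day 3 replicate 2. Without day 3 replicate 3 the rule chose 41 records, 20 of them additional.

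**Figure D4:**
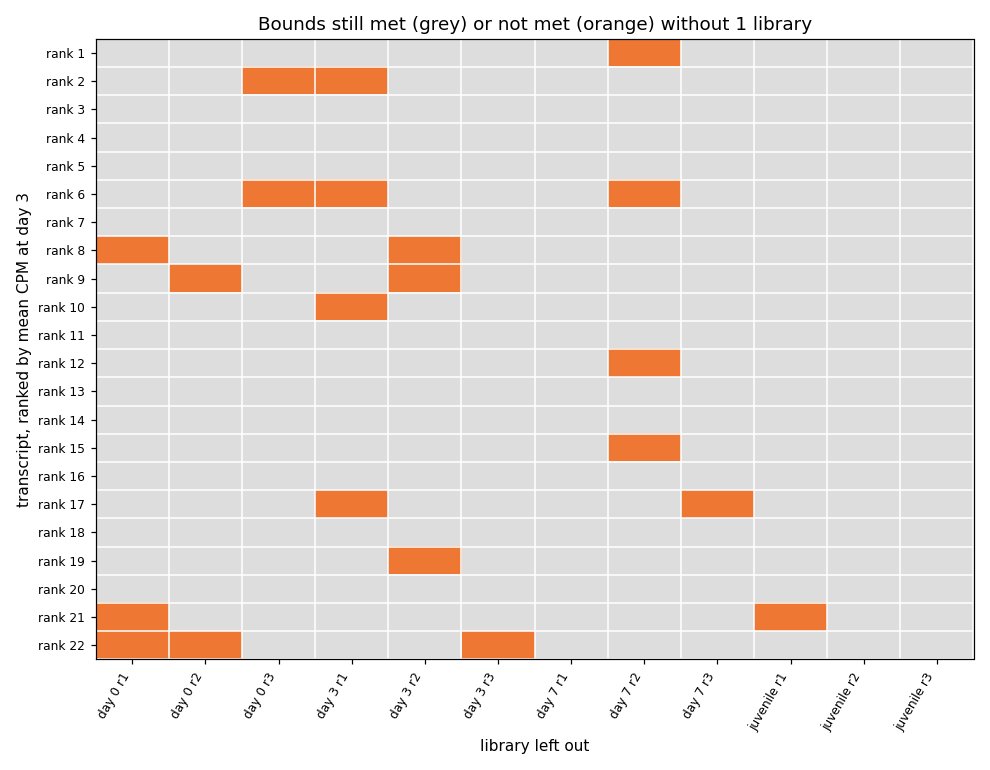
Whether each of the 22 transcripts (rows, by rank) still met the rule when 1 of the 12 libraries it used was left out (columns), grey for met and orange for not met. No row is orange in more than 3 columns, and 10 rows have no orange.

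When the rule was applied to replicates of 2 numbers and read in the third, 29 records were chosen without replicate 1, and 13 of them (44.8%) met both the rise of 1.8 and the fall of 1.5 in the replicate 1 libraries, beside 0.352% of the assembly records at the same minimum level. Of 27 records chosen without replicate 2, 12 (44.4%) did so in replicate 2, beside 0.422%. Of 45 chosen without replicate 3, 4 (8.89%) did so in replicate 3, beside 0.0743%. There the rise was met by 25 of the 45 and the fall by 6, and the median ratio of day 3 to day 7 was 1.14, against 1.54 and 1.55 in replicates 1 and 2. Linked records, such as ranks 3 and 4, are counted separately among those chosen. The assembly records beside them were not bounded on juveniles. These shares describe single libraries and carry no test, and nothing is read from the gap between them.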

How the data were processed

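Poly(A) RNA libraries were made from TRIzol extracts with a TruSeq RNA kit, per the labels' protocols. The authors used Bowtie2, per the submitters' processing notes; the sources used here leave its version, the counting tool, the sequence set and any filter unstated. The authors deposited raw read counts, 1 row per record and 1 column per library, as judged from whole numbers with differing totals. CPM were computed from column totals. Tests used edgeR 4.0.16 in R 4.3.3 (limma 3.58.1): filterByExpr (minimum count 10, minimum total 15), TMM scaling, a robust quasi-likelihood model of the 5 groups over the 15 libraries, and Benjamini-Hochberg adjustment over 46736 records. The 8 contrasts share groups, so their calls are not independent. Each SE was calculated back from the test, as the absolute log2 fold change over the square root of the quasi-likelihood F statistic. DESeq2 1.42.0 was an alternative. The 22 members, the tests and the rule for named transcripts (the 2 with the highest day 3 mean, and the 2 with the largest ratio of day 3 to the highest of day 0, day 7 and juveniles at 10 CPM or more) were chosen with earlier results of these data known. The classes of members, and the alternative that leaves out 3 libraries together, were added later. Same-numbered libraries of day 3 and day 0 deviated together (correlations 0.24, 0.174 and 0.515 for replicates 1 to 3). Those of day 3 and juveniles did so weakly (0.0314, 0.0794 and 0.115). The correlations were -0.041, 0.341 and 0.579 for days 3 and 7, and -0.0176, 0.266 and 0.475 for days 7 and 0. The other contrasts also had a negative correlation in some replicate. The kit does not record strand, so overlapping transcripts cannot be told apart.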

Additional observations from a re-analysis of the deposited data

How the results depend on the processing

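The number of records chosen by the rule was 4 with bounds of 2 against day 0 and day 7, 17 with TMM-scaled sizes, where ranks 2, 8, 9, 21 and 22 were not chosen, 18 at a minimum of 5 CPM, 25 with group medians, of which 13 were shared with the 22, and 28 with 3 libraries (replicate 3 of days 0 and 3, replicate 2 of day 7) left out, of which 18 were shared. It ran from 19 to 41 without single libraries and reached 45 without replicate 3 of all groups; the 41 came without day 3 replicate 3. With those 3 libraries out together, chosen after seeing the data, 1 member was lower at day 5 than at day 3, beside 111 of the 46736 records.

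Fits of only the 2 groups compared called 7 members higher at day 3, 5 at day 5 and 5 at day 7 than at day 0 (0.573%, 1.76% and 4.20% of all records). They also called 1 higher at day 5 than at day 7 (1.11% of all records) and 1 lower at day 7 than at day 0 (6.44%). DESeq2 called 7 higher at day 3 than at day 7, beside 756 of the 46736 records. Leaving out single libraries gave 10 to 15 members higher at day 3 than at day 0, 2 to 5 higher at day 3 than at day 7, 7 to 11 higher at day 5 than at day 0, 0 lower at day 5 than at day 3, 0 to 2 higher at day 5 than at day 7, 7 to 10 higher at day 7 and 0 to 2 lower there, both against day 0, 13 to 17 higher at day 3 than in juveniles and 12 to 13 higher at day 5 than in juveniles. Beside these, the same fits called the following numbers of the 46736 records, in the same order. They were 671 to 1622, 253 to 433, 894 to 1712, 0 to 6 and 141 to 380. Next came 2324 to 3785, 4118 to 7686, 2863 to 6059 and 2922 to 6523. Nothing is read from these ranges. Of the named transcripts, only GDAG01044216.1 changed direction, at day 5 against day 3, where single libraries left out gave -0.59 to 0.49, the latter without day 3 replicate 2.

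With the replicate number as a block, 13 members were higher at day 3 and 9 at days 5 and 7 than at day 0. Beside these, 1803, 1627 and 3635 of the 46736 records were called higher at days 3, 5 and 7. In that fit 4 members were higher at day 3 than at day 7, beside 1261 records. No count of members moved by over 1.5 times. Upper-quartile scaling moved the median log2 fold change of all records by 0.28, 0.24 and 0.39 for days 3, 5 and 7 over day 0. Relative to that median the members' median was 1.60, 1.05 and 0.64 there, against 1.59, 1.04 and 0.65 with TMM, and edgeR then called 18, 11 and 12 members higher, beside 13.7%, 8.74% and 35.8% of all records. The counts behind the scarcest members, down to 6 in 1 library, limit what can be seen of them.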
